A study of Mus musculus with 8 samples.

Results

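Gene expression was compared between 2 litters of mouse embryos in which both genotypes were equally represented. Litter 2 (wild type 3 and 4, mutant 3 and 4) was set against litter 1 (wild type 1 and 2, mutant 1 and 2), with 4 arrays a side, 1 embryo per array and genotype as a covariate. The comparison therefore used all 8 samples of the series. The embryos were C57Bl/6J at E12.5 (embryonic day). The mutants (-/-) lacked both intact copies of the Gata2 +9.5 enhancer, an element in an intron of Gata2 that drives this blood stem cell transcription factor, and the wild types were their littermates from crosses of parents carrying 1 mutant copy. Each genotype gave 2 embryos per litter. CD31 (PECAM-1) sits at the junctions of endothelial cells and is also found on platelets and leukocytes. Cells bearing it were taken with antibody-coated magnetic beads from single embryo carcasses without fetal liver and brain. All groups share this stage, strain and enrichment. Embryos of a litter share a mother, so the comparison has 2 independent litters. The arrays of a litter also share a slide, so litter and slide cannot be told apart in any value that follows.

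A bead enrichment leaves some cells that do not carry the target protein, so RNA of neighbouring tissues can appear in such preparations. In a mid-gestation embryo the blood still holds large primitive red cells, which carry embryonic globins, while definitive red cells with adult globins are entering from the fetal liver. Tissue macrophages, endothelium, cartilage condensations and the remnants of organs that were dissected away each have marker genes of their own. These were used to ask which tissues and programs differed between the litters.

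Of 40235 features (21779 with a gene symbol), 1611 were higher in litter 2 (4.00%) and 360 lower (0.895%) at an adjusted p under 0.05 (limma, Benjamini-Hochberg over all features). Levels are log2 signals relative to the 75th percentile of their array, and differences are litter 2 minus litter 1 on that log2 scale. The median of all features was itself 0.32 higher in litter 2 (-0.15 with arrays centred on their medians, 0.02 with quantile normalization), and relative differences below have this median subtracted. With quantile normalization 428 features were higher (1.06%) and 343 lower (0.852%), and with median centring 445 were higher and 575 lower. So 81.7% of the called features were higher in litter 2 with the 75th percentile scaling, against 55.5% with quantile normalization and 43.6% with median centring. Under both the 75th percentile scaling and quantile normalization 231 features were higher, 227 were lower and 0 had opposite calls. The litters did not overlap for 4218 features that were higher in litter 2 (10.5%) and for 1436 that were lower (3.57%).

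The count rested on single arrays. It was 4 without mutant 2, 152 without mutant 1, 286 without mutant 3, 486 without wild type 4, 566 without wild type 1 and 608 without mutant 4, and it rose to 3965 without wild type 2. Of the 92 genes named here that passed the threshold, 87 still passed without wild type 2 and 2 without mutant 2, and none changed sign with any single array left out. Their direction was the same under all 4 other scalings tried, and 54 of the 92 also passed with quantile normalization. Nothing in the labels describes further replication within an embryo, so p-values measure the spread between single embryos of a litter.

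**Figure D1:**
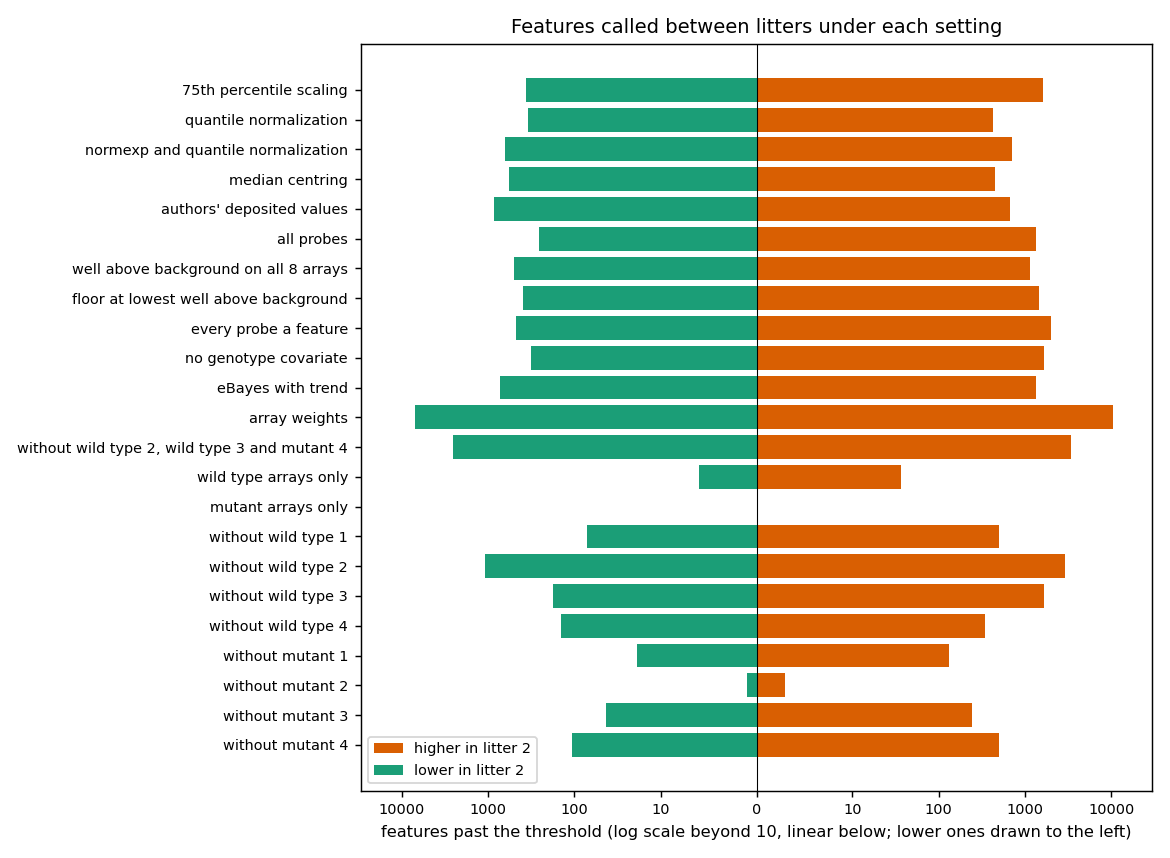
Number of features past the threshold under each setting (horizontal axis, log scale beyond 10 and linear below it), with features higher in litter 2 drawn to the right and lower ones to the left. The count was 1611 higher and 360 lower with the 75th percentile scaling, and 3 higher and 1 lower without mutant 2.

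The difference also varied with brightness. Features were cut by mean level into 10 equal bins. In the dimmest bin the median difference was 0.98, with 438 features called higher and 7 lower, and in the brightest bin it was -0.56, with 7 called higher and 104 lower. Litter 2 arrays had 83.0% to 92.0% of spots well above background against 74.9% to 85.8% in litter 1. Saturated spots made up 0.0118% to 0.0169% of each litter 2 array and 0% of each litter 1 array. Control spots for RNA added in the laboratory were brighter in litter 2 for all 10 control probes by their mean, by 0.64 to 2.72, and did not overlap between litters for 4 of them. On principal component 1 (58.9% of the variance) wild type 2, wild type 3 and mutant 4 scored 99.8 to 159, and no other array scored above 23.2. The part of these array differences in the gene results was not tested. For each gene list the median is therefore also given after subtracting, for each member, the median of all features in its own brightness bin.

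**Figure D2:**
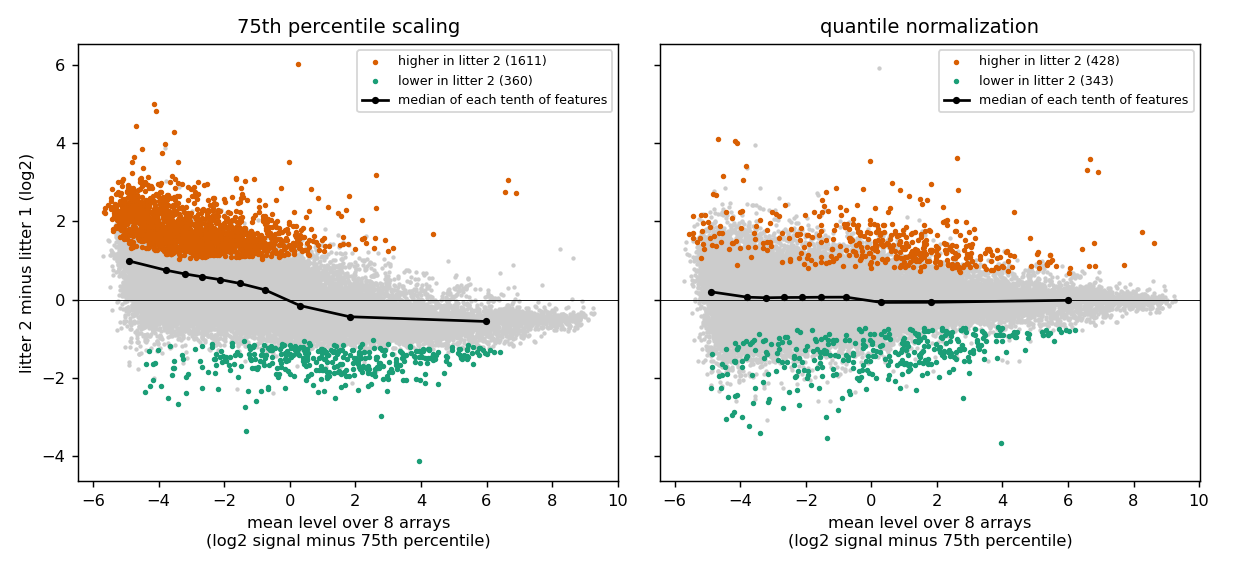
Difference between litters (log2, vertical axis) against the mean level over 8 arrays (horizontal axis) for each feature, with 75th percentile scaling on the left and quantile normalization on the right. The black line, the median of each of 10 brightness bins, falls from 0.98 to -0.56 on the left and lies between -0.07 and 0.20 on the right.

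Red cell genes were higher in litter 2, led by globins and by enzymes and membrane proteins of maturing erythrocytes. Of 3 embryonic globins Hba-x rose by 3.06 and Hbb-bh1 by 2.75. The adult beta globins Hbb-bt and Hbb-bs rose by 2.72 and 2.30. Outside the globins, 12 of 35 measured red cell genes were higher and 0 lower, against 4.00% and 0.895% of all features, and 14 of the 35 did not overlap between litters against 10.5%. In bulk samples such as these, more cells of a type and more RNA per cell cannot be told apart.

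The promoters of 4 of these genes and of the liver gene Afp are shown because the genes moved together and known erythroid factors read such sequences. GATA1 binds GATA boxes and KLF1 binds CACC boxes upstream of many erythroid genes. The 150 bases before the RefSeq start are printed 5′ to 3′ in the direction of the gene (GRCm38.p6). Capitals mark the GATAA motif, the CACCC motif and the TATAAA motif on either strand in the red cell genes, and in Afp the GTTAAT motif, found in sites of the hepatocyte factor HNF1, and the TATAAA motif. No marked match overlaps another.
Alas2, chrX:150547267-150547416, plus strand: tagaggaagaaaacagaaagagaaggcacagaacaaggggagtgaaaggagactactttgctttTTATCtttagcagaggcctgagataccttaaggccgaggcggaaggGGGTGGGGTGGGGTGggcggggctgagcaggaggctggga
Kel, chr6:41704326-41704475, minus strand: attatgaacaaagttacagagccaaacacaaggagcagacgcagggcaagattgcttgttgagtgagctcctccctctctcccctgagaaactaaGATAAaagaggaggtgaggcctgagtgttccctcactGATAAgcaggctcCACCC
Hba-x, chr11:32276450-32276599, plus strand: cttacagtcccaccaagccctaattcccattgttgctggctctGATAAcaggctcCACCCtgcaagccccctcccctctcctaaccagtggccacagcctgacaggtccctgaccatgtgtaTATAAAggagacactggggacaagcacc
Hbb-bt, chr7:103813924-103814073, minus strand: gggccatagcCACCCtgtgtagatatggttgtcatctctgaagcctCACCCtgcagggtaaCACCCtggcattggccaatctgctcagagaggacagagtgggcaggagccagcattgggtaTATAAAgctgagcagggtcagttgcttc
Afp, chr5:90490564-90490713, plus strand: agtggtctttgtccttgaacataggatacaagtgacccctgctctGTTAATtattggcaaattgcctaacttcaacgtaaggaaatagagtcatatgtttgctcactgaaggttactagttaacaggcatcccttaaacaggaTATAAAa

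Hba-x holds 1 GATAA and 1 CACCC match, Alas2 holds 1 GATAA and 3 CACCC matches, Kel holds 2 GATAA matches and 1 CACCC match, while Hbb-bt holds 3 CACCC matches and no GATAA in this window. Of the 32851 promoters in the table, 13.3% hold GATAA in such a window, 37.4% CACCC, 3.99% both, 7.57% TATAAA and 3.71% GTTAAT. Of the 16 globin and red cell genes called higher, 9 have a promoter in the table, all 9 with CACCC and 5 with both motifs. Of the 32 measured globin and red cell genes in the table, called or not, 22 hold CACCC and 9 hold both, and 61.5% of the 26 measured liver genes there hold CACCC, so this motif is not particular to the genes called. These matches describe the letters and show no binding.

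Alas2, the enzyme of the first step of heme synthesis in red cells, stood at 0.95, 0.43, 1.31 and 1.44 in litter 1 (wild type 1 and 2, mutant 1 and 2) and at 3.47, 4.79, 4.29 and 4.28 in litter 2 (wild type 3 and 4, mutant 3 and 4). Every litter 2 array lay above every litter 1 array, and wild type 3 was the lowest of its litter. The difference was 3.18 ± 0.35 (SE, adjusted p = 0.0117), 3.44 in the wild types and 2.91 in the mutants, and 3.61 with quantile normalization (adjusted p = 0.0092). The probe lies at chrX:147004993-147005052 in the mm9 build of the file headers.

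Hba-x, the embryonic zeta-like globin, lay between 4.10 and 5.95 in litter 1 but between 7.39 and 8.61 in litter 2 (adjusted p = 0.0120). Hbb-bh1, an embryonic beta-like globin, ran from 3.89 to 6.26 and from 7.11 to 8.29 (adjusted p = 0.0138). Both had their lowest value in wild type 2 for litter 1 and wild type 3 for litter 2, and the litters did not overlap. Hbb-y, the major embryonic beta-like globin of primitive red cells, was among the brightest features. Its values were 8.09, 7.37, 8.50 and 8.49 in litter 1 and 8.63, 9.44, 9.45 and 9.13 in litter 2, without overlap. Its difference of 1.05 ± 0.31 did not pass (adjusted p = 0.0866) but passed with quantile normalization (1.43, adjusted p = 0.0173). A second Hbb-y probe, also well above background on all 8 arrays, differed by 0.79. With that probe the litters overlapped, with mutant 2 at 8.70 and wild type 3 at 8.30. The 75th percentile subtracted from wild type 3 was the highest of the 8 arrays (a signal of 2481). Whether either Hbb-y probe was saturated in litter 2, the only litter with saturated spots, was not tested. Saturation would make these differences too small.

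Among adult globins Hbb-bt, a beta-major-type gene, lay between 5.18 and 5.83 in litter 1 but between 7.54 and 8.75 in litter 2 (adjusted p = 0.0120). Hbb-bs, its near copy, ran from -0.07 to 0.93 and from 2.11 to 4.34 (adjusted p = 0.0309). Hba-a1, the adult alpha globin used as a marker, stood at 7.77, 6.96, 7.75 and 7.92 in litter 1 and at 8.28, 9.22, 9.15 and 8.94 in litter 2. The litters did not overlap, and the difference of 1.30 ± 0.32 had an adjusted p of 0.0522, or 0.0134 with quantile normalization (1.72). Only litter 2 arrays had saturated spots, and whether this very bright probe was among them was not tested. If it was, its litter 2 levels and the difference are understated. The 2 remaining members, Hba-a2 at -0.05 ± 0.31 and Hbb-b2 at 0.26 ± 0.60, overlapped between litters. Adult globin copies are nearly identical, so their probes can take up each other's RNA and the split between copies is uncertain. Hba-ps4, an alpha globin pseudogene, rose by 3.08 ± 0.38 (adjusted p = 0.0121).

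Of the red cell genes without globins, Kel, the Kell blood group protein, lay between -1.30 and -0.47 in litter 1 but between 1.17 and 2.48 in litter 2, a rise of 2.83 ± 0.34 (adjusted p = 0.0118). Trim10, a protein needed for terminal erythroid maturation, rose by 2.48, Slc4a1, the band 3 anion exchanger, by 2.34, and Ahsp, the chaperone of free alpha globin, by 2.14. Rhag, Rhd, Ank1, Nfe2 and Slc25a37, parts of the Rh complex and membrane skeleton, an erythroid transcription factor and the mitochondrial iron importer, also rose, by 1.56 to 1.75. Tmod1, a cap of actin filaments in the membrane skeleton, was not well above background on any litter 1 array and was at least 1.99-fold higher. Of the 35 members, 12 passed, 1 of which is not named here, and 23 did not. They included the early regulators Gata1 at 0.85 ± 0.28 (adjusted p = 0.107), Klf1 at 0.84 ± 0.54 and Tal1 at -0.27 ± 0.31, and the transferrin receptor Tfrc at -0.58 ± 0.29. Apart from the regulators Nfe2 and Trim10, the members named that passed belong to the heme, globin and membrane genes of maturing red cells. The median of the 35 was 0.93, or 0.60 relative to all features. It was 0.76 with quantile normalization, with 11 members higher, and 0.84 against features of the same brightness. Without wild type 3 the relative median was 0.91, and with other single arrays left out it was not below 0.34. Relative to each array's median, the list stood at 1.75 to 2.44 in litter 1 and 2.10 to 2.77 in litter 2, with overlap.

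**Figure D3:**
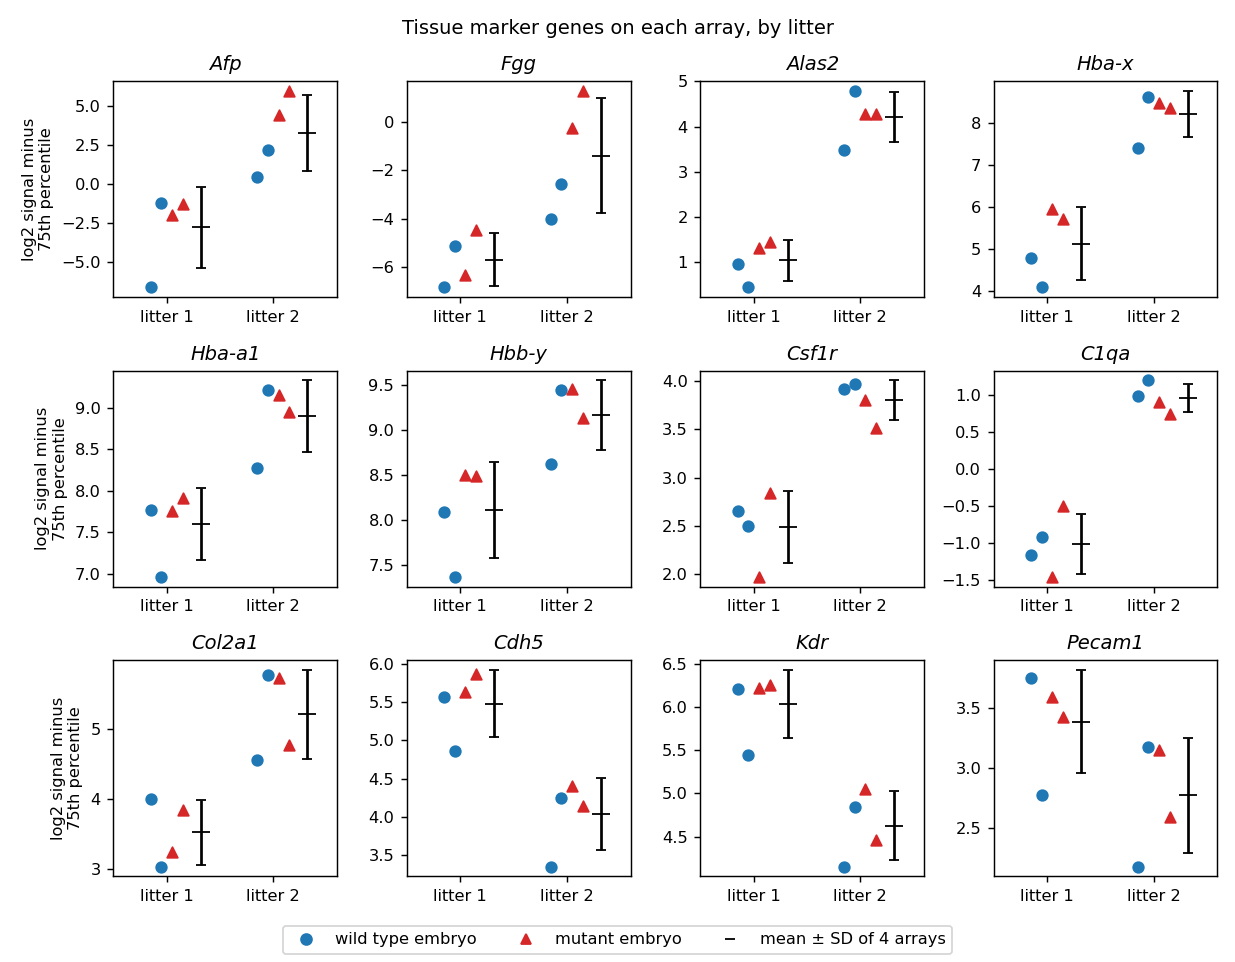
Level of 12 marker genes (log2 signal minus the 75th percentile, vertical axes of different range) on each array by litter, with circles for wild types, triangles for mutants and black bars for the mean ± SD of 4 arrays. Alas2, Hba-x and C1qa of litter 2 lie above all litter 1 arrays, Cdh5 and Kdr lie below them, and Pecam1 overlaps.

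Macrophage genes were higher in litter 2 across complement, receptor and lineage genes. Of 33 measured members 15 were higher and 0 lower (4.00% and 0.895% of all features), and 18 did not overlap in that direction (10.5%). The median was 1.24, or 0.91 relative to all features, with 1.16 in the wild types and 0.77 in the mutants. With quantile normalization it was 1.13 with 12 members higher (1.06% of all features), and against features of the same brightness 1.04. Relative to each array's median, the list stood at 0.61 to 1.69 in litter 1 and 1.33 to 1.92 in litter 2, with overlap.

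Csf1r, the receptor for the growth factor that macrophages depend on, stood at 2.65, 2.50, 1.97 and 2.84 in litter 1 and at 3.91, 3.97, 3.81 and 3.52 in litter 2. All litter 2 arrays were higher, by 1.31 ± 0.28 (adjusted p = 0.0367), and its 2 other probes differed by 1.75 and 1.02. C1qa, a chain of the complement starter C1q, stood at -1.17, -0.92, -1.46 and -0.50 and then at 0.99, 1.20, 0.91 and 0.75, a rise of 1.98 ± 0.30 (adjusted p = 0.0156). The spread within each litter was under 1 while the litters differed by about 2 on the log2 scale. The other C1q chains C1qc and C1qb rose by 1.69 and 1.51.

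Mrc1, the mannose receptor of resident macrophages, rose by 1.73 ± 0.28 and Spi1, the PU.1 transcription factor of myeloid cells, by 1.92 ± 0.35, the latter from a level well above background on only 1 litter 1 array. Adgre1, the F4/80 antigen, rose by 1.56, Folr2 by 1.55, Cd14 by 1.24 and Aif1 by 1.44. Fcgr3, Ms4a7, Ms4a6c, Lyz2 and Tyrobp, Fc receptor, membrane and adaptor proteins and lysozyme, made up the rest of the 15, with 1.35 to 1.58. Among the other members Itgam at -0.03 ± 0.35, Laptm5 at -0.27 ± 0.25 and the transcription factor gene Maf at -0.01 ± 0.27 did not pass. Granulocyte genes stood at a relative median of -0.06 (-0.10 to 0.20 with single arrays left out) with 0 of 21 called, and platelet and megakaryocyte genes at -0.17 (-0.47 to 0.06) with 0 of 23 called. The relative median of the platelet and megakaryocyte list was 0.32 in the wild types and -0.84 in the mutants. Of 13 mast cell genes Hpgds, a prostaglandin D synthase that macrophages also carry, rose by 1.92. Of 19 lymphoid genes 3 rose, among them the dim Klrb1c (at least 1.36-fold) and Flt3 (by 1.16 on the log2 scale).

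Liver genes were higher in litter 2 although the liver had been removed, most steeply for plasma proteins of early hepatocytes. Afp, alpha-fetoprotein of fetal liver and yolk sac, had the largest rise of all genes named. It stood at -6.61, -1.19, -1.99 and -1.30 in litter 1 and at 0.43, 2.17, 4.43 and 5.95 in litter 2. The values of litter 2 were spread over more than 5 log2 units, with both mutants above both wild types, and wild type 1 was not well above background. The difference was 6.02 ± 1.04 (adjusted p = 0.020), from 5.10 to 7.27 with single arrays left out, and 5.91 with quantile normalization (adjusted p = 0.0501). The probe lies at chr5:90937781-90937840 (mm9).

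Fgg, the gamma chain of fibrinogen, stood at -6.83, -5.13, -6.34 and -4.45 in litter 1 and at -4.03, -2.59, -0.27 and 1.27 in litter 2 (4.28 ± 0.80, adjusted p = 0.0234). Again mutant 4 was the highest and mutant 3 the next. This probe was well above background on only 1 litter 1 array. Kng1, kininogen, rose by 3.12 (wild type 2 had no value and was left out of that fit), Apoa1, the main apolipoprotein of high density lipoprotein, by 3.01, Ttr, transthyretin, by 2.26 and Gc, the vitamin D binding protein, by 2.18. These 6 of 31 measured liver genes were higher and 0 lower, against 4.00% and 0.895% of all features. Of them, Ttr alone also passed with quantile normalization (2.34, adjusted p = 0.0255), and Vtn, vitronectin, passed only there. Alb, albumin, at 0.98 ± 0.54 and the hepatocyte factor Hnf4a at 0.96 ± 0.67 (again without wild type 2) did not pass. The list median was 1.09, or 0.76 relative to all features (0.80 with quantile normalization and 0.65 against features of the same brightness). It was 0.47 in the wild types and 1.35 in the mutants. The median level of the list relative to each array's median lay between -0.96 and -0.54 in litter 1 but between -0.78 and 1.29 in litter 2. The visceral endoderm and yolk sac list, which shares Afp, had 1 of 17 measured members higher and 1 lower (4.00% and 0.895% of all features). Its relative median was 0.34, with 0.10 in the wild types and 0.47 in the mutants. Like the liver list, it was highest in mutant 3 and mutant 4, at 0.79 and 1.44. The difference of the litter effect between genotypes passed the interaction test for 0 of 40235 features (limma, 489 at an unadjusted p under 0.05).

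**Figure D4:**
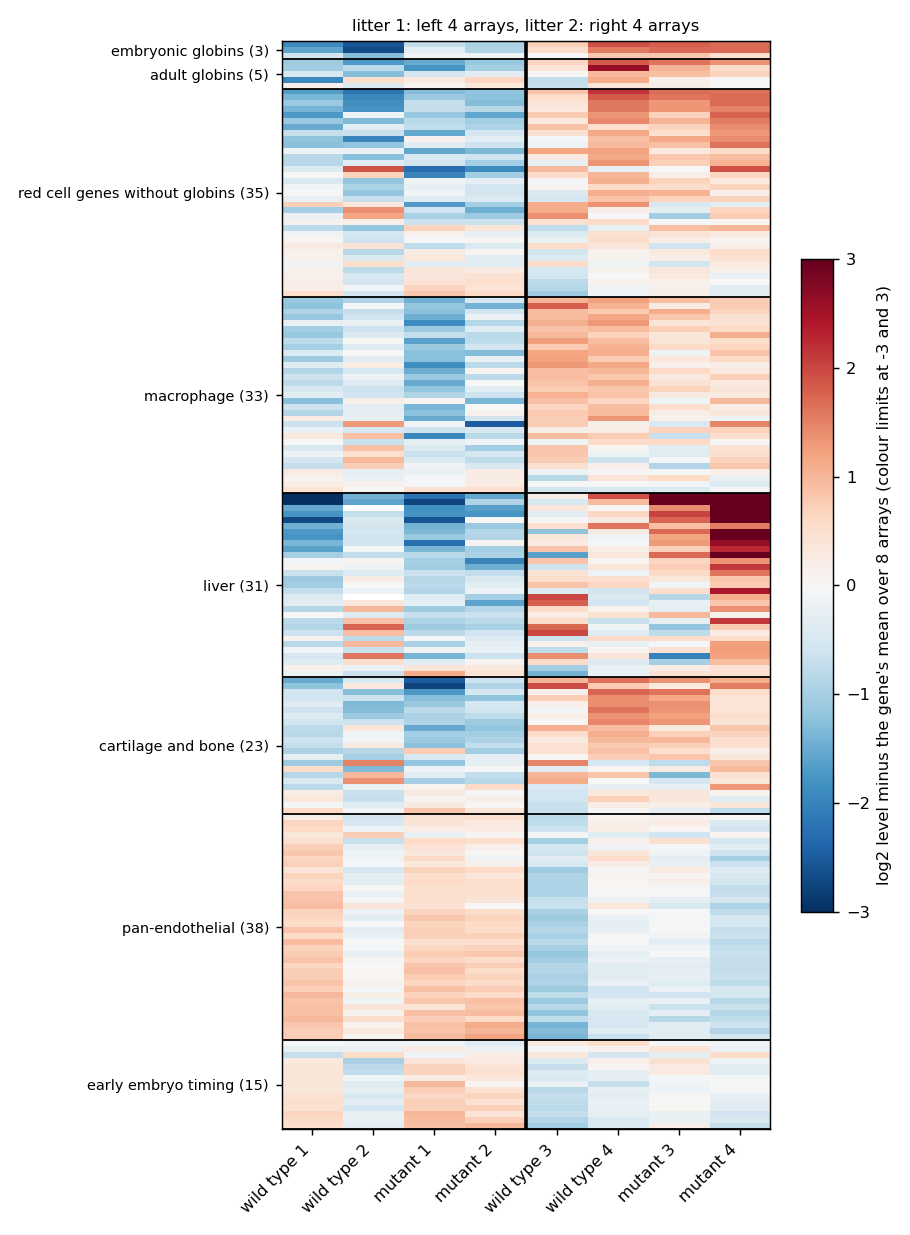
Log2 level of each measured member of 8 gene lists (rows, number in brackets) on each array (columns), minus the gene's mean over 8 arrays, with colour limits at -3 and 3. Rows within a list are ordered by the litter difference. The globin, red cell and macrophage rows at the top of each list are red in litter 2, the liver rows are darkest in mutant 3 and mutant 4, and the endothelial rows are blue in litter 2.

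Cartilage genes were higher in litter 2, led by matrix proteins of chondrocytes. Of 23 measured members 9 were higher and 0 lower (4.00% and 0.895% of all features), with a relative median of 0.88 (0.93 with quantile normalization, with 5 members higher). Relative to each array's median, the list stood at 0.45 to 1.02 in litter 1 and 0.98 to 2.01 in litter 2, with overlap. Col2a1, the main cartilage collagen, stood at 3.99, 3.03, 3.23 and 3.84 in litter 1 and at 4.56, 5.76, 5.72 and 4.76 in litter 2, without overlap (1.68 ± 0.40, adjusted p = 0.0462). Cnmd, chondromodulin, rose by 1.85, Matn1, a matrilin, by 2.04, the proteoglycan gene Epyc by 2.55 and the aggrecan gene Acan by 1.50. Col9a1, Col9a3, Col11a1 and Col11a2, collagens that share fibrils with Col2a1, rose by 1.38 to 1.60. The hypertrophic and bone genes Col10a1 at 0.47 ± 0.51, Sp7 at 0.47 ± 0.42 and Runx2 at 0.50 ± 0.66 overlapped between litters and did not pass, nor did the chondrocyte regulator Sox9 at 0.99 ± 0.30 (adjusted p = 0.0911, without overlap).

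The other non-endothelial tissue lists had 0 to 4 members past the threshold. Of 20 neural progenitor and Schwann cell genes 4 were higher (4.00% of all features), among them Sox2 by 1.77, Tfap2b by 1.69 and S100b by 1.20, with a relative median of 0.56. With quantile normalization 1 of the 20 was higher, and it was not one of these 4. Of 27 skeletal muscle genes 2 were higher, a share not far above the 4.00% of all features. Myh3, embryonic myosin, rose by 1.58 and Cdh15, M-cadherin, by 1.36 (relative median 0.54), and 0 of the 27 passed with quantile normalization. Of 9 tendon genes 2 were higher (4.00% of all features), Tnmd by 1.54 and Fmod by 1.25, and Tnmd did not pass with quantile normalization. The relative median of the tendon list was 0.20, from -0.10 to 0.55 with single arrays left out. The lists for neurons (1 of 25, Chga at 1.59), cardiomyocytes (1 of 19, Myl3 at 1.79), skin (1 of 22, Krt14 at 2.05) and kidney and adrenal (1 of 19, Hsd3b1 at 1.88) had shares of higher members near the 4.00% of all features, which is no result about these tissues. Of 26 mesenchyme and pericyte genes 0 passed. This list held bright collagens, with Col1a2 at 0.88 ± 0.36 and Col3a1 at 0.62 ± 0.37. Its relative median was 0.28, and 0.79 with quantile normalization, where 5 members were higher (1.06% of all features). With single arrays left out it ran from -0.06, without wild type 2, to 0.54.

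Endothelial genes, which mark the cells the beads were meant to take, were lower in litter 2. Of 38 measured pan-endothelial genes 7 were lower and 0 higher (0.895% and 4.00% of all features), and 18 did not overlap in that direction (3.57%). All 38 had a difference below the median of all features. So did all 25 measured mitochondrial respiration genes and all 23 measured ribosomal protein genes, which are also bright. The relative median of the pan-endothelial list was -1.22, with -0.96 in the wild types and -1.42 in the mutants. The members are bright, and against features of the same brightness the median was -0.44. With quantile normalization it was -0.49, with 5 members lower (0.852% of all features).

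Aplnr, the apelin receptor of veins and angiogenic tips, stood at 5.07, 4.42, 5.28 and 5.53 in litter 1 and at 2.96, 3.68, 3.96 and 3.79 in litter 2, a fall of 1.48 ± 0.29 (adjusted p = 0.0279). Cdh5, VE-cadherin of endothelial junctions, stood at 5.56, 4.85, 5.63 and 5.86 and then at 3.35, 4.24, 4.41 and 4.14, a fall of 1.44 ± 0.31 (adjusted p = 0.0354, and 0.86 lower with quantile normalization at adjusted p = 0.0407). No litter 2 array reached the lowest litter 1 array for either gene, and wild type 2 and wild type 3 were the lowest of their litters. Sox17, a transcription factor of arterial endothelium, fell by 1.47, Esam, a junction protein, by 1.42, Kdr, the main VEGF receptor, by 1.40, and the ETS factors Erg and Ets1 by 1.24 and 1.21. The Cdh5 probe lies at chr8:106668159-106668218 (mm9).

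Pecam1 itself, the gene of the CD31 protein, did not pass. Its level was 3.75, 2.78, 3.59 and 3.42 in litter 1 and 2.18, 3.17, 3.15 and 2.59 in litter 2, with overlap (-0.61 ± 0.35, adjusted p = 0.273). Relative to each array's median the endothelial list stood at 5.38 to 6.95 in litter 1 and 4.64 to 6.10 in litter 2, so endothelial genes were bright on every array. Cldn5 at -0.45 ± 0.32, Eng at -0.46 ± 0.40 and Emcn at -0.41 ± 0.36 also did not pass. In the artery list Gja5, connexin 40, fell by 1.60 beside Sox17, 2 of 16 measured members (0.895% of all features were lower). Gja5 did not pass with quantile normalization (limma, adjusted p = 0.0597). Gja5's other probes differed by 0.34 and 1.36 in the other direction. In the vein list only Aplnr of 8 passed, against the same 0.895%. Of 15 lymphatic genes 0 passed as lower, though 2 were lower without overlap (3.57% of all features), and Reln, reelin, rose by 1.22. The relative medians of these 3 lists were -1.13, -1.16 and -0.95, and -0.50, -0.48 and -0.31 with quantile normalization.

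**Figure D5:**
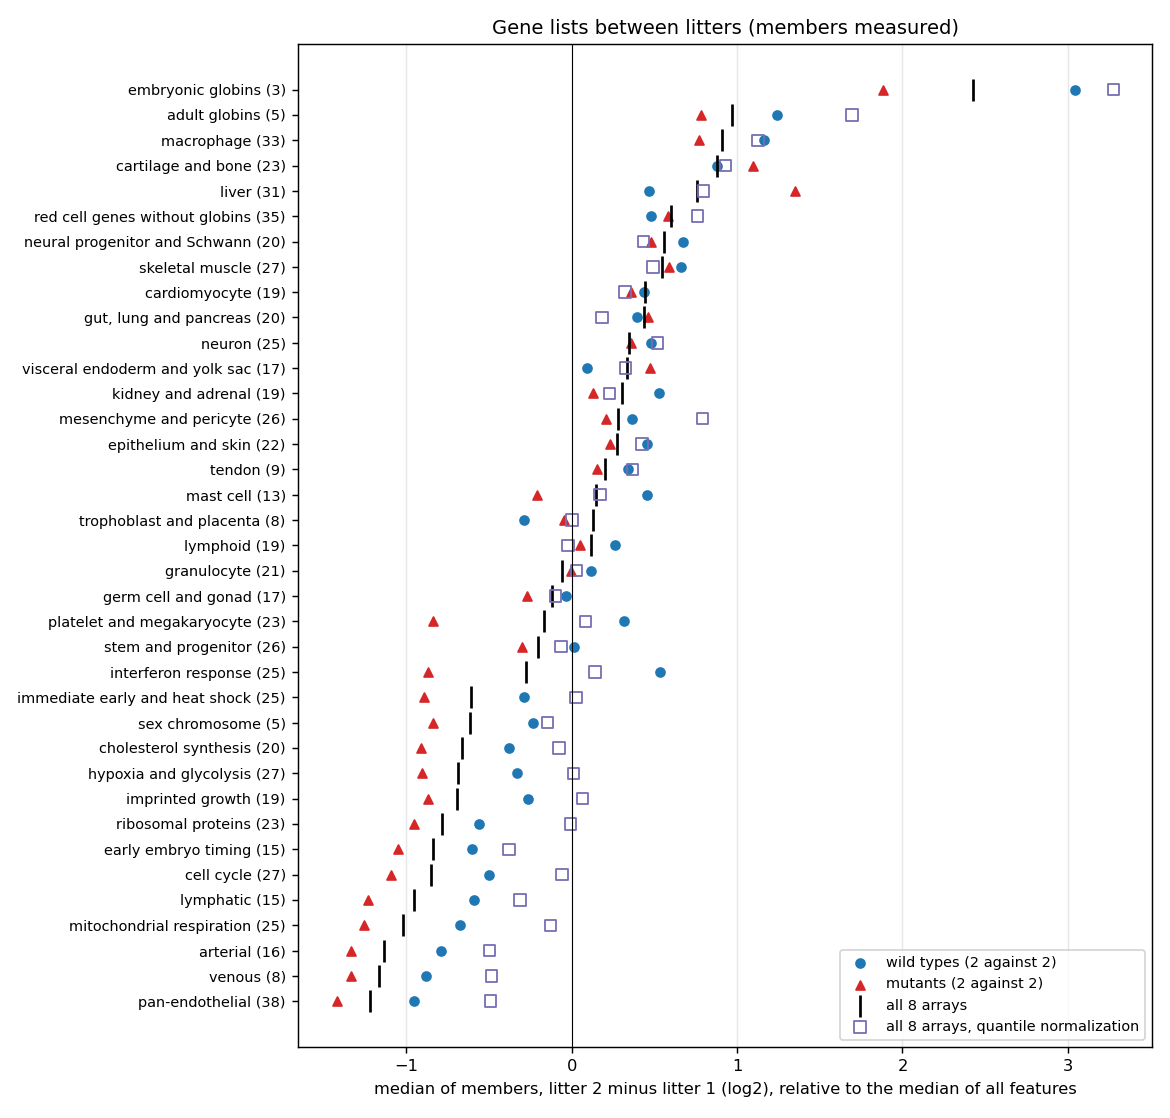
Median difference of 37 gene lists between litters (log2, relative to the median of all features, horizontal axis), in wild types (circles), in mutants (triangles), over all 8 arrays (black bars) and with quantile normalization (squares). Globins lie at the top and the pan-endothelial, venous and arterial lists at the bottom, and lists of bright genes such as ribosomal proteins move from -0.78 to -0.01 with quantile normalization.

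Genes whose level falls as an embryo develops were compared as a sign of stage. This early embryo list holds the Lin28 genes, Hmga genes and Igf2bp genes, which are high in young embryos and decline later. Of 15 measured members 0 passed in either direction, and 1 (Arid3a, -0.99 ± 0.29, adjusted p = 0.0819) did not overlap. The relative median was -0.84, and -0.38 with quantile normalization and -0.21 against features of the same brightness. Lin28b stood at 2.17, 1.30, 2.53 and 1.90 in litter 1 and at 0.81, 1.22, 1.31 and 0.94 in litter 2, which overlapped through wild type 2 and mutant 3 (-0.90 ± 0.32, adjusted p = 0.124). Hmga1 at -0.64 ± 0.30, Mycn at -1.01 ± 0.33 and Ccnd2 at 0.00 ± 0.35 did not pass either.

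Lists of general cell programs hold bright genes. Cell cycle genes had a relative median of -0.85, ribosomal protein genes -0.78, mitochondrial respiration genes -1.02, cholesterol synthesis genes -0.66, imprinted growth genes -0.69 and glycolysis and hypoxia genes -0.68. With quantile normalization these became -0.06, -0.01, -0.13, -0.08, 0.06 and 0.01, so the sign of the last 2 turned. Of the imprinted genes Dlk1, Meg3 and Dcn passed with quantile normalization alone, at 1.14, 1.57 and 1.25. With the 75th percentile scaling only Slc2a1, the glucose transporter of red cells and hypoxic cells, passed among them (-1.29 ± 0.28, adjusted p = 0.0377). Of 25 immediate early and heat shock genes, which respond to cell handling, the heat shock genes Hspa1a and Hspb1 fell by 2.13 and 1.86, and the dim AP-1 gene Fosl1 rose by 1.38. Of 25 interferon response genes 0 passed.

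Among stem and progenitor genes Runx1, the factor that makes blood cells from endothelium, rose by 1.13 ± 0.26 (adjusted p = 0.0439, and its second probe differed by 1.25), and Erg fell. Gata2 stood at 2.00 and 1.66 in the litter 1 wild types and at 0.89 and 1.42 in those of litter 2, and at -1.24 and -0.15 in the litter 1 mutants and -1.27 and -1.07 in those of litter 2. The litter difference was -0.57 ± 0.32 (adjusted p = 0.269), and every wild type lay above every mutant. Xist, which is expressed from the inactive X chromosome of females, was near the floor at -6.74 on wild type 1 and -6.92 on wild type 4 and at -0.27 or above on the other 6. The Y-linked Ddx3y stood at 1.42 and 1.28 on those arrays and at -5.21 or below on the others. Each litter thus held 1 embryo with this male pattern, a wild type in both cases.

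The largest rises outside the tissue lists included several dim probes. Tbr1, a transcription factor of the forebrain, stood at -6.03, -2.86, -5.77 and -6.07 in litter 1 and at -2.47, -2.09, -1.81 and -1.74 in litter 2, a rise of 3.16 ± 0.66 (adjusted p = 0.0337). Wild type 2 was the highest of litter 1, where only 1 array had this probe well above background. The placental hormone gene Prl2a1 (at least 4.71-fold), the milk casein gene Csn1s2b (at least 8.15-fold) and the olfactory receptor genes Olfr1066, Olfr476 and Olfr736 (at least 6.34-fold, 3.90-fold and 3.15-fold) were not well above background on any litter 1 array, as was the antisense transcript Zfhx2os (at least 2.82-fold). These folds compare the mean of litter 2 with the lowest signal well above background, or the probe's own where higher. A second Csn1s2b probe differed by 0.64. Paqr6, a membrane receptor of the progestin family, rose by 3.52 with this probe, and by 0.93 and 0.60 with its other 2.

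The 15 largest falls were single genes rather than marker sets. Dera, a deoxyribose phosphate aldolase, stood at 0.51, -0.41, 0.63 and 0.58 in litter 1 and at -2.98, -3.06, -3.52 and -2.52 in litter 2, a fall of 3.35 ± 0.34 (adjusted p = 0.0115). Rpe, a pentose phosphate epimerase, fell by 2.67, Eprs, a transfer RNA synthetase, by 2.39, and Galnt11, a glycosyltransferase, by 2.27. Chst12, a sulfotransferase, and Grb14, an adaptor of the insulin receptor, were not well above background on any litter 2 array and were at least 3.03-fold and 3.84-fold lower. Cdc42ep1, an effector of a small GTPase, fell by 2.06. The predicted genes Gm13698, Gm6570, Gm33989, Gm6788 and Gm13229 and the pseudogene Rpl34-ps1 fell by 2.15 to 2.97. Ocel1 fell by 2.51 with its bright probe, while its second probe differed by 1.15 in the other direction. Hspa1a completes the list. Plac1, a trophoblast gene, fell by 1.45.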

How the data were processed

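Total RNA of bead-enriched CD31+ cells from 8 single embryos was hybridised to 1-colour Agilent arrays (Cy3). Per the file headers the deposited gProcessedSignal intensity was background-subtracted and detrended within each array by Feature Extraction 10.7.3.1, with no scaling between arrays, and probe positions are in mm9. The authors' deposited table holds log2 values for 50120 probes, which correlated at 1 with the same array's median-centred log2 intensity. Its column medians ran from -0.104 to -0.0628, an offset of unknown origin of -0.102 to -0.0606. The submitters' processing notes name limma.

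Here outlier spots were dropped, spots of a probe averaged, and each array's 75th percentile subtracted from log2 intensity. A probe was kept where 4 or more of 8 arrays had it well above background, with the brightest probe per symbol and at least 3 values per litter. The model held litter and genotype and used eBayes after lmFit (limma 3.58.1, R 4.3.3), with two-sided p-values adjusted by Benjamini-Hochberg, and was tested on simulated data. The simulated noise was drawn independently for each value, without the array-wide differences seen here, so that test does not cover them. The number of arrays limits the precision. Of 55681 probes, 22437 had no gene name. Promoters came from RefSeq.

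The comparison, its members and the gene lists were chosen with earlier results of these data known. Named genes were the 15 largest rises and falls past the threshold, up to 4 members of each list past it or else the 2 brightest, the markers, Gata2 and the sex chromosome list. Other genes named were chosen after their values were seen. Alternatives changed the scaling, background correction, filter, floor, probe summary, covariate, variance model, array weights and arrays used. Some members of the lists are counted but not reported by name here.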

Additional observations from a re-analysis of the deposited data

Results flagged for a closer look

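With 4 embryos per litter, a value was singled out where the gap to its nearest neighbour divided by the litter's range exceeded Dixon's critical value. Of 249 groups 27 met this, where chance flags about 1 in 20, and 17 of the 27 fell on wild type 2. The explanation was not tested.

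In litter 1, wild type 2 lay below its litter for the pan-endothelial list (5.38 relative to the array median), Hba-a1 (6.96), the replication gene Mcm6 (6.08), the mitotic gene Birc5 (5.21), Ccnd2 (2.80), Foxl2 (4.32), Csf3r (4.87), Cox4i1 (6.74), Atp5b (6.65), Gng11 (6.92), Rplp0 (8.51), Dera (-0.41), Eprs (-2.69) and Chst12 (-4.11). It lay above its litter for Zfhx2os (-5.51), Tbr1 (-2.86) and Apoa1 (-3.51).

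Wild type 1 was low for Afp (-6.61, against -1.99 to -1.19 on the other litter 1 arrays) and for Xist (-6.74). Mutant 1 was high for the keratin gene Krt14 (-1.15) and low for the chemokine gene Ccl4 (-1.21), and mutant 2 was high for Tnmd (-3.98). In litter 2, wild type 3 was low for Prl2a1 (-3.54), Myl3 (-2.99), Hbb-bh1 (7.11) and Lhx2 (0.44), and wild type 4 for Xist (-6.92).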

How the results depend on the processing

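The number of features past the threshold was 1971. It was 771 with quantile normalization, 1020 with median centring, 17546 with array weights, 5908 without wild type 2, wild type 3 and mutant 4, 43 with wild type arrays only and 0 with mutant arrays only (limma, 8948 at an unadjusted p under 0.05). With each array left out in turn it ran from 4 to 3965. The relative median of adult globins (0.97) became 1.69 with quantile normalization and 1.89 with normexp and quantile normalization. That of the cartilage list (0.88) became 1.33 with array weights and 1.50 without those 3 arrays, that of the pan-endothelial list (-1.22) became -0.49 with either quantile setting, and that of red cell genes (0.60) became 0.97 without the 3 arrays and 0.34 to 0.91 with single arrays left out. The trophoblast list (0.13) reversed to -0.43 with array weights and -0.48 with wild types only. The fits with arrays left out or with wild types only used fewer samples. The cause of these changes was not tested. No paired analysis was possible because the replicate numbers of the litters name different embryos. Signal over background limited litter 1 most for dim probes.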

Other observations

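Several genes outside the lists were named after their values were seen. Of chemokine genes, Ccl7 rose by 2.48 ± 0.29 (adjusted p = 0.0118, limma), Ccl4 by 1.79 and Ccl2 by 1.40, 3 genes picked for their change that describe no family. Ccl7 lay between -3.15 and -2.31 in litter 1 but between -0.54 and -0.04 in litter 2. Ncf4, a subunit of the phagocyte oxidase, rose by 2.38, F13a1, the clotting factor subunit of macrophages, by 2.12 and Cd83 by 1.30. The metal-binding metallothioneins Mt2 and Mt1 rose by 1.58 and 1.25. Tent5c and Pdzk1ip1 rose by 2.63 and 2.21 and the insulin receptor substrate Irs2 by 1.51. Hes1, a Notch target, fell by 1.57 and Rps21 by 1.84.

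Of 24 forebrain and midbrain regulators listed after the values were seen, 22 were measured, and 9 were higher and 0 lower (4.00% and 0.895% of all features), and 3 were higher with quantile normalization (1.06%). As the list was made with these values known, the counts support nothing. Their median was 1.02, or 0.69 relative to all features and 0.48 against features of the same brightness. Dbx1 rose by 2.75, Lmx1a by 2.23 and Lhx2 by 1.92. The brain had been removed from all carcasses. Of 758 measured olfactory receptor genes, which are dim, 35 were higher and 0 lower, near the 4.00% and 0.895% of all features, and 3 were higher and 4 lower with quantile normalization (1.06% and 0.852%), so the family did not stand out by these counts.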
